A study of Rattus norvegicus with 87 samples.

Results

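Immediate-early genes were examined in the lateral habenula (LHb) of naive Heterogeneous Stock (HS) rats. The 10 genes were picked by a list of Ensembl identifiers with no rule on their values, though earlier results of these data were known. All 10 were among the 17512 genes of the table. They were Fos (ENSRNOG00000008015), Fosb (ENSRNOG00000046667), Junb (ENSRNOG00000042838), Jun (ENSRNOG00000026293), Egr1 (ENSRNOG00000019422), Egr2 (ENSRNOG00000000640), Arc (ENSRNOG00000043465), Nr4a1 (ENSRNOG00000007607), Dusp1 (ENSRNOG00000003977) and Btg2 (ENSRNOG00000003300).

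Immediate-early genes are transcribed within minutes of a stimulus, without new protein synthesis, and their transcripts are short-lived. In neurons, calcium entry and kinase signalling act on the transcription factors CREB, which binds the cAMP response element (CRE), and SRF, which binds the CArG box. The level of such a transcript in dissected tissue depends on the recent past of the animal. The LHb is a small epithalamic nucleus that responds to aversive events and to the omission of reward.

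HS rats are an outbred population descended from inbred founder strains. RNA-Seq of polyadenylated RNA was available for 81 rats, 41 males and 40 females, none of which had been tested for behavior or given a drug, and all of which had been group housed. The LHb was removed by hand from frozen sections, and the tissue of both sides of a rat made up 1 sample, so that in such bulk tissue a change in the number of expressing cells and a change in RNA per cell cannot be told apart. The only labels that separated the rats were sex and rat batch, and the labels do not say what a rat batch shared. Batch 2 held 11 males and 4 females, batch 3 held 10 and 12, batch 4 held 12 and 15, and batch 6 held 8 and 8. Batch 5 held 1 female, whose values were within the range of the other rats for all 10 genes and who was left out of the tests.

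Values are log2(normalized count + 1), where a normalized count is the upper quartile adjusted count deposited by the authors. The depth before adjustment could be recovered for 61 rats and ranged from 5.74 to 50.5 M counts (M, mega), with a median of 18.1 M. Between 296 and 1661 genes were listed at 0 per rat. The columns of the table stood in 3 alphabetical runs of rat identifiers, here called column runs. Run 1 contained batch 2 entirely, and run 3 contained batches 4 and 6 entirely. Of the rats of batch 3, 7 were in run 1, 12 in run 2 and 3 in run 3.

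Since the 10 genes are known for shared upstream control, their promoters were searched for CRE and CArG box letters. RefSeq promoter sequences (assembly GRCr8, 250 bases before to 50 bases after the transcription start) were matched by symbol for 7 of the 10 genes, namely Fosb, Junb, Egr1, Egr2, Nr4a1, Dusp1 and Btg2. Sequences are shown for the 5 genes with a full CRE, a CArG box or several short CREs. They run 5′ to 3′ on the strand of the gene. Capitals mark the CRE (TGACGTCA), the short CRE (TGACG or, on the other strand, CGTCA, each of which a full CRE also contains) and the CArG box. They lie at chr18:26736828-26737127 on the plus strand (Egr1), chr20:21054392-21054691 on the minus strand (Egr2), chr7:134259888-134260187 on the plus strand (Nr4a1), chr10:17184603-17184902 on the plus strand (Dusp1) and chr13:48087641-48087940 on the minus strand (Btg2).
Egr1: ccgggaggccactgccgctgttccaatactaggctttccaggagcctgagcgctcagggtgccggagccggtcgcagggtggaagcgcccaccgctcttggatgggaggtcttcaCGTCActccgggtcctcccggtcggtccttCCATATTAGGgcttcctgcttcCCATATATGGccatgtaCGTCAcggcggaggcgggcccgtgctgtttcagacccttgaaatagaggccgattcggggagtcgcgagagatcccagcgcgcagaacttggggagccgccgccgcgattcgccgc
Egr2: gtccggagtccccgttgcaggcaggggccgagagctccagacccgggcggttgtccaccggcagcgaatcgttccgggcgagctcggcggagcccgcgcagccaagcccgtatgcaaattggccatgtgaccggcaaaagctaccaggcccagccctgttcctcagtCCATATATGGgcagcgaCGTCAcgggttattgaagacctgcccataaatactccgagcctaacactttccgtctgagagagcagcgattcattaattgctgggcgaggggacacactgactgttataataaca
Nr4a1: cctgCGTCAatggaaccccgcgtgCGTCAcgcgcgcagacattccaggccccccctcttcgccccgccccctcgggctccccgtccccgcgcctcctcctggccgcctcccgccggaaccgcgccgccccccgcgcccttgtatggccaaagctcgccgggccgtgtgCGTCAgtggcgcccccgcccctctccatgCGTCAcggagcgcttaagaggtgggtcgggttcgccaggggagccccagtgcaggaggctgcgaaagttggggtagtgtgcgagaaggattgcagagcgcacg
Dusp1: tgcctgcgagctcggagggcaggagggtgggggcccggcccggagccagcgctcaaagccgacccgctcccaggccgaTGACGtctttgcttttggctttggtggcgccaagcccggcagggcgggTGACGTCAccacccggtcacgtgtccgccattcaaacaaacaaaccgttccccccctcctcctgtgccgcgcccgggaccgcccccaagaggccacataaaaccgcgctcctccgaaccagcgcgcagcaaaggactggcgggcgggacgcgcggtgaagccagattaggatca
Btg2: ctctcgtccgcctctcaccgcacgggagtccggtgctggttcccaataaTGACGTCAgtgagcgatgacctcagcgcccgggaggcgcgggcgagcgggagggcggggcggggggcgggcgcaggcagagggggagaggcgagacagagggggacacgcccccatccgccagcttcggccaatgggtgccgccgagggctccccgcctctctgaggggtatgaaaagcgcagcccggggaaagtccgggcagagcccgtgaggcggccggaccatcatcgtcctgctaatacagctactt

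The promoter of Egr1, a zinc finger transcription factor, held 2 CArG boxes, starting 105 and 83 bases before the transcription start, and 2 short CREs. That of its relative Egr2 held 1 CArG box, which also started 83 bases before the transcription start. A short CRE followed at 66 bases before the start in both promoters. Of all 33469 RefSeq promoters of this length, 1.64% held a CArG box. Nr4a1, an orphan nuclear receptor, had 4 short CREs and no CArG box. Dusp1, a phosphatase that inactivates MAP kinases, and Btg2, an antiproliferative cofactor of transcription, each had a full CRE, at 124 and 201 bases before the start. A full CRE was present in 1.83% of all promoters. A short CRE was present in 6 of the 7 promoters, all but that of Fosb, against 21.2% of all promoters. An AP-1 site (TGACTCA or TGAGTCA), the element bound by Fos and Jun proteins, was in 0 of the 7 and in 4.63% of all promoters. Only exact matches were counted, with the CArG box as CC, 6 letters that are A or T, and GG. Near matches were not looked for. These counts describe letters within a window and do not show that a factor binds. Their relation to the levels of the genes was not tested.

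The members of the Fos family encode proteins that pair with Jun proteins to form AP-1. Fos ranged from 6.23 to 10.64 over the 81 rats, with a median of 8.97, which is 74 to 1591 normalized counts. Fosb, whose stable splice product builds up with repeated stimulation, ranged from 4.32 to 8.50 with a median of 7.04. Both were above 0 in every rat. The lowest and the highest rat thus lay over 4 units apart for both genes.

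Of the Jun family, Junb ranged from 6.58 to 10.50 with a median of 7.98. Jun itself had a narrow range of 9.50 to 10.95, with a median of 10.18. Among the zinc finger factors, Egr1 ranged from 7.29 to 11.08 with a median of 9.27. Egr2 was low in all rats, between 0 and 34 normalized counts with a median of 4, so counting error is large beside its level.

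Arc, which encodes a synaptic protein that acts in the internalization of AMPA receptors, had the smallest range, from 7.49 to 8.84 with a median of 8.12. Nr4a1 ranged from 6.70 to 11.07 with a median of 8.09, and Dusp1 from 8.20 to 11.91 with a median of 9.50. Btg2 ranged from 7.83 to 11.21 with a median of 8.52, and its upper tail was longer than its lower. Levels of different genes are not compared, since transcript lengths were not used here.

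**Figure D1:**
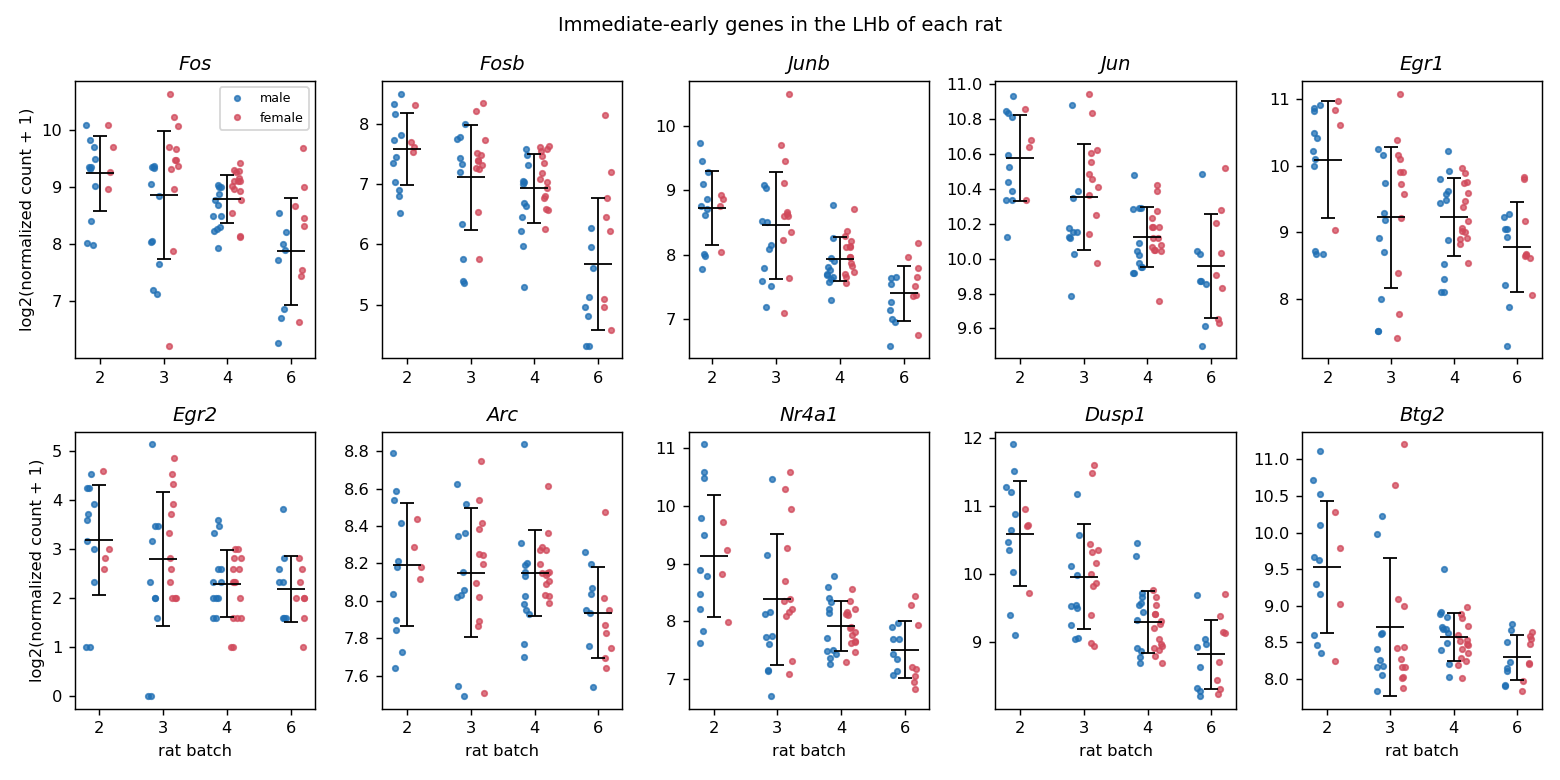
Level of each gene in the LHb, as log2(normalized count + 1), for each rat of batches 2, 3, 4 and 6 (80 rats); blue points are males, red points females, and black bars are the batch mean and SD. Batch 6 has the lowest mean for all 10 genes, and Jun and Arc have the narrowest ranges.

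The spread between rats was described by the residual SD after sex and batch were removed (80 rats). Egr1 had a residual SD of 0.80 against a median of 0.19 for genes whose mean log2 value was within 0.5 of its own. For Nr4a1 the values were 0.82 against 0.23. Fos had 0.76 against 0.21, and Dusp1 had 0.64 against 0.18. Fos, Egr1, Nr4a1, Dusp1 and Btg2 each exceeded at least 99.1% of the genes of like level, Junb exceeded 97.8% and Fosb 96.4%.

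The remaining 3 genes were not as variable. Jun, with a residual SD of 0.25, exceeded 83.7% of genes of like level, and Arc, with 0.29, exceeded 73.3%. Egr2 had the largest residual SD of the 10, at 1.00, but exceeded only 49.3% of genes of its low level. No test was made of these ranks.

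**Figure D2:**
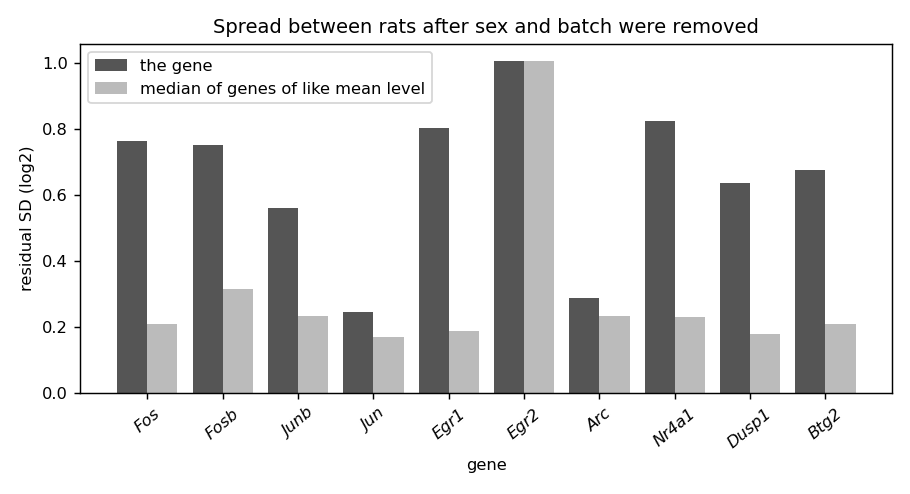
Residual SD between the 80 rats (log2 scale) of each gene (dark bars) beside the median residual SD of genes whose mean level was within 0.5 (light bars). The dark bar is well over the light bar for 7 genes, slightly over it for Jun and Arc, and level with it for Egr2.

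The spread differed in size between batches. The SD of Fos after sex was removed was 0.67, 1.06, 0.38 and 0.89 for batches 2, 3, 4 and 6. For Nr4a1 it was 1.09, 1.11, 0.44 and 0.51, and for Btg2 0.93, 0.97, 0.32 and 0.31 in the same order. Batch 4, the largest, had the smallest SD for Fos and Nr4a1. Over all genes whose mean log2 was 5 or more, the median SD was 0.20, 0.25, 0.23 and 0.16, which does not place batch 4 lowest. The difference in spread between batches was not tested.

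The first comparison asked whether the genes differed between males and females, with rat batch as a covariate. None of the 10 had an adjusted p under 0.05 in limma, where 0.131% of all genes did. An unadjusted p under 0.05 was found for 4 of the 10 and for 882 of all 17512 genes. Of the 10 differences, 9 were negative, which means a lower level in males. The median of the 10 was -0.13, and that of all genes was 0.00083. A p over the threshold does not show that the sexes were alike.

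Fos had the largest of these differences. It was between 6.27 and 10.09 in males, with a median of 8.50, and between 6.23 and 10.64 in females, with a median of 9.11. The sexes overlapped over nearly the whole range. The fitted difference of males from females was -0.57 (SE 0.17, limma p 0.00124, adjusted p 0.34). Within batches 2, 3, 4 and 6 the difference was -0.37, -0.84, -0.36 and -0.69.

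For Fosb the median was 6.89 in males and 7.26 in females, with a fitted difference of -0.53 (SE 0.168, limma p 0.0022, adjusted p 0.436). Within batches it was -0.28, -0.52, -0.36 and -1.01. Junb differed by -0.28 (SE 0.125, limma adjusted p 0.912) and Jun by -0.12 (SE 0.0556, limma adjusted p 0.956). Egr1 differed by -0.32 (SE 0.178, limma adjusted p 0.998). Fos, Fosb, Jun and Egr1 were lower in males in each of the 4 batches, and Junb in 3 of them. The differences of the other 5 genes lay between -0.14 for Nr4a1 and 0.05 for Btg2, and each of them changed sign between batches.

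Whether the sex difference varied between batches was tested by the interaction. It had an adjusted p under 0.05 in limma for 0 of the 10 genes and for 0.0% of all genes. At an unadjusted p under 0.05 there were 0 of the 10 and 306 of all 17512 genes. The size of the spread was also compared between the sexes. The log2 ratio of the SD in males to that in females, after batch means were removed, ran from -0.23 for Fos to 0.45 for Egr2. No gene had an adjusted permutation p under 0.05, or an unadjusted one. The lowest was that of Arc, with a ratio of 0.42, SDs of 0.32 in males and 0.24 in females, a two-sided permutation p of 0.0816 and an adjusted p of 0.438.

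The second comparison was between rat batches, adjusted for sex. In the F-test over batches 2, 3, 4 and 6, 9 of the 10 genes had an adjusted p under 0.05 in limma, where 65.3% of all genes did. The exception was Arc, with an adjusted p of 0.0669. The lowest adjusted p-values were those of Dusp1 (limma, 1.84e-10) and Jun (limma, 2.38e-09). When only the 13360 genes with a mean log2 of at least 5 were tested, 77.5% of them passed. Of the 9 members among these, 8 did, which is near that share. With the column run as a covariate, 6 of the 10 were past the threshold in limma, against 35.3% of all genes. Jun (adjusted p 0.0699), Nr4a1 (0.0716) and Egr2 (0.427) no longer passed, in a fit of limited precision, as given below. From high to low, the means stood in the order of batches 2, 3, 4 and 6 for 9 of the genes, and for Egr1 batch 3 lay marginally below batch 4.

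Dusp1 ranged from 9.11 to 11.91 in batch 2, with a median of 10.71. It ranged from 8.94 to 11.61 in batch 3, with a median of 9.92. In batch 4 it ranged from 8.69 to 10.45, with a median of 9.30, and in batch 6 from 8.20 to 9.70, with a median of 8.81. The medians went down from batch to batch, and each range overlapped the next.

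Fosb had a median of 7.61 in batch 2, with a range of 6.52 to 8.50, and of 7.35 in batch 3, with a range of 5.36 to 8.35. Its median was 7.03 in batch 4 (5.29 to 7.64), whereas batch 6 had a median of 5.37 (4.32 to 8.14). The upper end of batch 6 was set by 1 female, and 13 of its 16 rats lay under the lowest rat of batch 2. Fos had medians of 9.35, 9.33, 8.92 and 7.95 in batches 2, 3, 4 and 6, the first 2 of which lay close together. Arc had medians of 8.18, 8.17, 8.15 and 7.95 in the same order.

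Between batches 6 and 2, all 10 genes were lower in batch 6 with an adjusted p under 0.05, where 21.8% of all genes were. The median of the 10 differences was -1.39, and that of all genes was 0.0006. Fosb differed by -2.03 (SE 0.266, limma adjusted p 5.68e-09), or 4.09-fold. Dusp1 differed by -1.78 (SE 0.224, limma adjusted p 2.0e-09), or 3.44-fold, and Nr4a1 by -1.66 (SE 0.29, limma adjusted p 3.26e-06), or 3.16-fold. The smallest difference was that of Arc, at -0.27 (SE 0.103, limma adjusted p 0.0295), or 1.20-fold. With the column run as a covariate, 7 of the 10 were lower with an adjusted p under 0.05 in limma, against 14.7% of all genes. The median difference was -1.70. Egr1 (-1.22, SE 0.619, adjusted p 0.121), Egr2 (-1.40, SE 0.788, 0.166) and Arc (-0.31, SE 0.216, 0.268) did not pass. Their SE without this covariate was 0.283, 0.361 and 0.103. Batches 6 and 2 shared no column run, and only 3 rats of batch 3 linked run 3 to the other runs, so this fit is less precise.

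The other pairs of batches lay between. In batch 4 against batch 2, 9 of the 10 genes were lower with an adjusted p under 0.05 in limma, all but Arc, against 17.7% of all genes. In batch 6 against batch 3 there were 7 (Fos, Fosb, Junb, Jun, Arc, Nr4a1 and Dusp1) against 27.4%. In batch 4 against batch 3 there were 3 (Junb, Jun and Dusp1), against 26.2%, which is a share near the background. In batch 3 against batch 2 there were 4 (Jun, Egr1, Dusp1 and Btg2) against 5.01%, and in batch 6 against batch 4 there were 2 (Fos and Fosb) against 2.35%. None of the 10 was higher in the higher-numbered batch of any pair with an adjusted p under 0.05. With the column run as a covariate, fewer of the 10 were lower in 4 of these pairs. Only 3 rats of batch 3 linked run 3 to the other runs. The SE was therefore larger in this fit when batch 4 or 6 was set against batch 2 or 3. In batch 4 against batch 2, 3 were left (Junb, Dusp1 and Btg2) against 8.74% of all genes, and in batch 3 against batch 2 there were 0, against 0.0%. In batch 6 against batch 3 there were 4 (Fosb, Junb, Dusp1 and Btg2) against 16.9%, and in batch 4 against batch 3 there were 0 against 11.1%. In batch 6 against batch 4 there were 3 (Fos, Fosb and Junb) against 4.03%.

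The column run moved with the batch, and the 2 could be set apart only where they crossed. Runs 1 and 3 were not compared within a batch. The part of the run in batches 4 and 6 against batch 2 was thus not tested in this way. Within run 3, batches 4 (n = 27) and 6 (n = 16) were compared alone. Fosb was lower in batch 6 by 2.33-fold (difference -1.22, SE 0.23, limma adjusted p 0.00294), and Fos by 1.85-fold (difference -0.89, SE 0.186, limma adjusted p 0.00686). Junb, Nr4a1 and Dusp1 were lower as well, with differences of -0.52, -0.42 and -0.48. In all, 5 of the 10 were lower with an adjusted p under 0.05 in limma, where 4.17% of all genes were. The median of the 10 differences was -0.43, against 0.0091 over all genes. The number of genes listed at 0 also differed between these batches, with medians of 634 and 467.5, and with it as a covariate Fos, Fosb and Junb were still past the threshold, at differences of -0.87, -1.30 and -0.48, where 0.331% of all genes were lower. Nr4a1 (adjusted p 0.152) and Dusp1 (0.151) were lost in that fit.

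Within run 1, batch 3 (n = 7) lay below batch 2 (n = 15) for all 10 genes, with a median difference of -0.62. None of them passed in limma, where 0.0% of all genes did. An unadjusted p under 0.05 was found for 4 of the 10 and for 1507 of all 17512 genes. Runs 2 (n = 12) and 1 (n = 7) could be compared in batch 3 alone, with the batch held fixed. None of the 10 was higher or lower in run 2 with an adjusted p under 0.05 in limma, where 11.7% of all genes were higher and 11.3% were lower. Fos and Arc had an unadjusted p under 0.05, as did 6573 of all 17512 genes, which is a larger share. The largest difference was that of Fos, which was higher in run 2 by 1.01 (SE 0.415, limma adjusted p 0.08). Arc was higher by 0.35 (adjusted p 0.0715), and by 0.40 (adjusted p 0.0427) without female rat 32, who is described below.

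**Figure D3:**
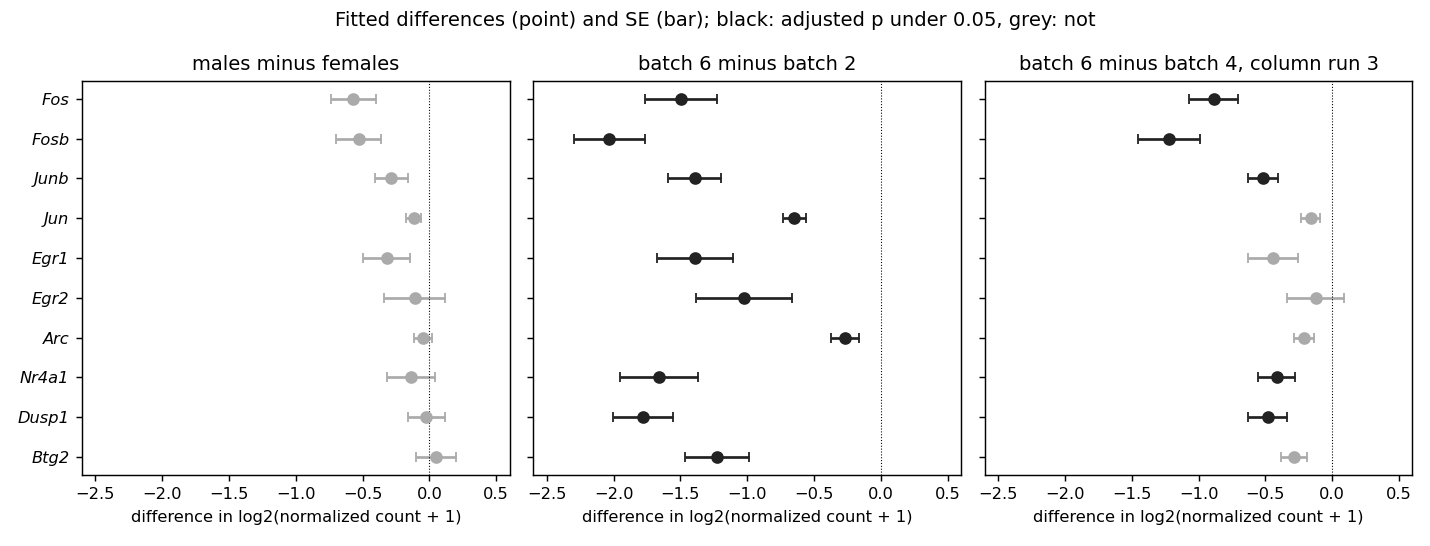
Fitted differences in log2(normalized count + 1) with their SE for males minus females, for batch 6 minus batch 2, and for batch 6 minus batch 4 within column run 3. Black points have an adjusted p under 0.05 in limma: 0, 10 and 5 of the genes from left to right.

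The third question was whether the genes varied together between rats. After sex and batch were removed, all 45 pairs were positively correlated over the 80 rats. Pearson's r ran from 0.36 for Fosb and Arc to 0.85 for Nr4a1 and Btg2, with a median of 0.59, and Spearman's rho from 0.30 to 0.80. The largest adjusted permutation p over the 45 pairs was 0.00194 for r and 0.00841 for rho, from two-sided permutations within batches. For r, 32 pairs had the smallest p that 100000 permutations can give, 1e-05. Of all pairs of genes in the table, 7.5% reached the lowest r of these 45, and 3.33% reached 0.5, which 33 of the 45 did.

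Most of the strongest pairs held Nr4a1 or Fos, and Junb was close to both. Nr4a1 correlated with Btg2 (r = 0.85, rho = 0.77), Junb (r = 0.84, rho = 0.80) and Dusp1 (r = 0.83, rho = 0.78). Fos correlated with Fosb (r = 0.80, rho = 0.79) and Junb (r = 0.78, rho = 0.76), and Dusp1 with Btg2 (r = 0.79, rho = 0.71). Fosb was less tied to the others, with r of 0.47 to Nr4a1 and 0.39 to Btg2. Arc reached no r over 0.58 with any of them over the 80 rats. Its r with Junb was 0.57 over these rats and 0.68 without female rat 32, who is described below. Egr1 and Egr2 had r = 0.45, and the highest r of Egr2 was with Nr4a1 (0.65). The values of Egr2, with a median of 4 normalized counts, carry a large counting error. The first principal component of the 10 genes held 65.0% of their standardized variance.

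**Figure D4:**
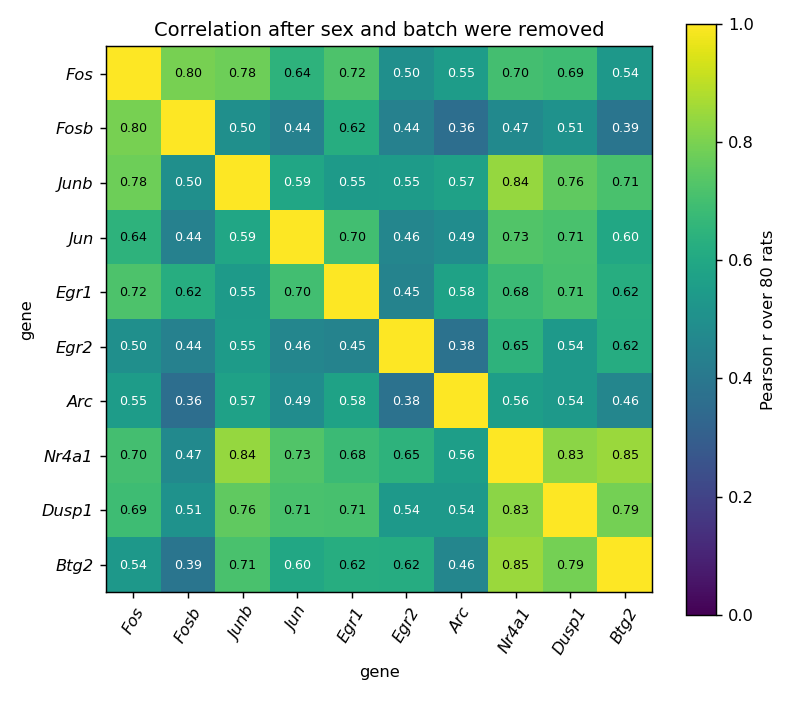
Pearson's r between each pair of genes over 80 rats after sex and batch were removed; the colour scale runs from 0 to 1. All 45 values are above 0, with the highest for Nr4a1 with Btg2, Junb and Dusp1 and for Fos with Fosb, and the lowest for Arc with Fosb.

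The median r over the 45 pairs was 0.70, 0.65, 0.49 and 0.55 for batches 2, 3, 4 and 6, and all 45 were positive in each. Nr4a1 and Btg2 had r of 0.97, 0.85, 0.74 and 0.47 in these batches. Fos and Fosb had 0.90, 0.79, 0.67 and 0.89. Fosb and Jun, in contrast, had 0.65 and 0.47 in batches 2 and 3, 0.01 in batch 4 and 0.58 in batch 6. Whether these values differed between batches was not tested. Without the 2 rats farthest from the median of the first gene of a pair, r ran from 0.37 to 0.84, and all 45 were positive.

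No relation of a gene to a library measure passed the threshold. Over 80 rats, r with the number of genes listed at 0 lay between -0.06 and 0.10 and rho between -0.06 and 0.14. Over the 60 rats in the tests whose depth could be recovered, r with log2 depth lay between -0.07 and 0.14 and rho between -0.16 and 0.01. The lowest adjusted permutation p over the 20 relations was 0.974 for r and 0.942 for rho, and no unadjusted one was under 0.05. Within single batches r ran from -0.63, for Junb and depth in batch 2, to 0.38. The sign of r with depth was not the same in all batches. It was negative for all 10 genes in batch 2 (-0.63 to -0.01) and positive for all 10 in batch 3 (0.03 to 0.32), while 8 were negative in batch 4 and 9 in batch 6. These values within batches were not tested.

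Few rats were high or low for all genes at once. Female rat 7 of batch 3 was among the 10 highest rats for all 10 genes, and male rats 34 and 42 of batch 2 for 9 each. There were 5 rats among the 10 highest for at least 8 genes, 3 of batch 2 and 2 of batch 3. At the other end, female rat 14 of batch 6 was among the 10 lowest for all 10 genes, and male rat 28 of batch 6 for 8. Of the 6 rats among the 10 lowest for at least 6 genes, 4 were of batch 6 and 2 of batch 3. In contrast, 60 of the 81 rats were among the 10 highest for none. These rats were picked by their values, and nothing was tested on them.

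Female rat 32 of batch 3 departed from the shared pattern. She had the highest Fos of all 81 rats, at 10.64, and the highest Junb, at 10.50, where the other 11 females of batch 3 reached at most 10.22 and 9.70. Her Egr1 of 7.41 was the second lowest of all rats and lay below the 7.77 to 11.08 of these females. Arc was at 7.89 and Jun at 10.25, both within their range. Without her, r rose from 0.55 to 0.76 for Junb and Egr1, and from 0.72 to 0.85 for Fos and Egr1. The other pairs kept their sign, and the median r was 0.64.

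**Figure D5:**
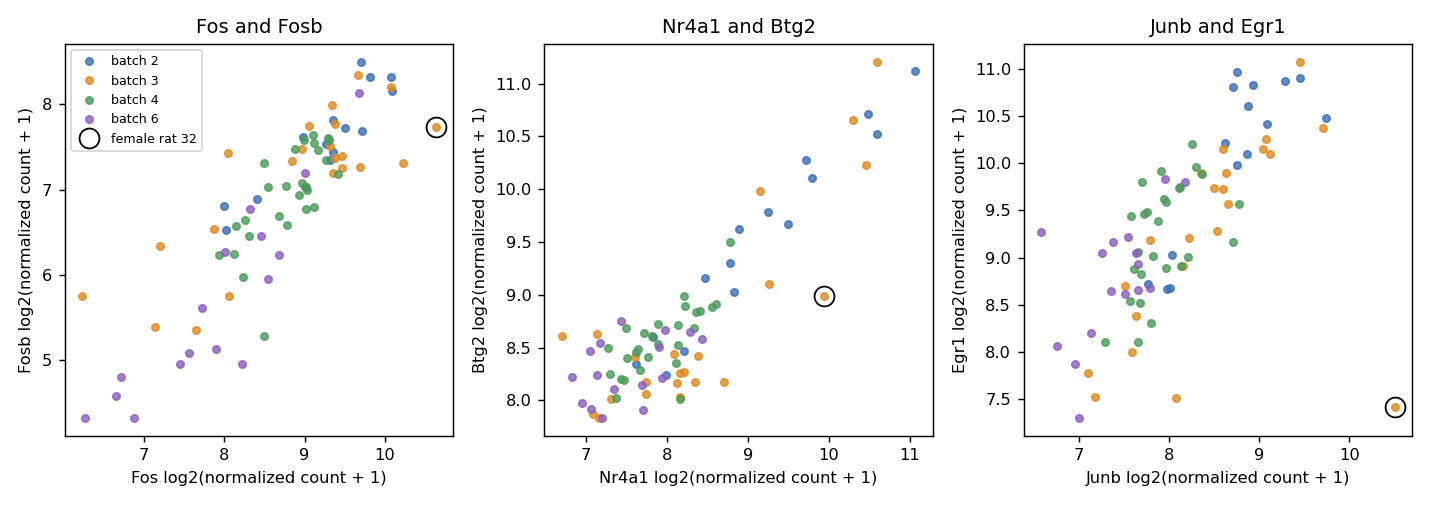
Levels of Fosb against Fos, Btg2 against Nr4a1 and Egr1 against Junb, as log2(normalized count + 1), in each rat of batches 2, 3, 4 and 6, colored by batch; the circle marks female rat 32. For Fosb, 13 of the 16 rats of batch 6 lie under the lowest rat of batch 2. Female rat 29 of batch 6 lies among the higher rats at 8.14. Female rat 32 has the highest Junb, at 10.50, and the second lowest Egr1, at 7.41.

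Genes outside the 10 were ranked by their mean r with them, among 13351 genes whose mean log2 was 5 or more. The median of this mean r was -0.0032, and 8 genes reached 0.5, as 9 of the 10 genes themselves did against one another (0.50 to 0.70). The highest was ENSRNOG00000007830, with a mean r of 0.70 and its closest relation to Dusp1 (r = 0.87). The next was ENSRNOG00000014205, with a mean r of 0.63 and its closest relation also to Dusp1 (r = 0.81). The deposited table pairs no names with these identifiers.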

How the data were processed

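Polyadenylated RNA from the LHb of 87 HS rats was listed in the labels. The authors had removed 6 samples, and 81 were analysed here. Per the study's methods and processing notes, the authors trimmed reads with cutadapt, used RSEM and the Ensembl rat transcriptome (Rnor_6.0) to estimate gene counts, applied an upper quartile adjustment with DESeq2, removed genes with few reads, added a pseudocount of 1 and deposited log2 values. Tool versions were not given in the sources used here. The values back-transformed to whole numbers, from which the library factor, and so the depth, was recovered by maximum likelihood where the best factor led by at least 30 log-likelihood units. The log2 scale with this pseudocount understates differences of low genes.

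Rats were grouped by sex and rat batch from the labels. limma 3.58.1 in R 4.3.3 (lmFit, eBayes with trend, two-sided or F) was run on all 17512 genes of 80 rats, and p-values were adjusted by Benjamini-Hochberg across the whole table, with calls made at 0.05. Correlations used residuals after sex and batch, with 100000 permutations within batches (20000 for alternatives and 5000 for the median absolute deviation), adjusted over 45 pairs or 20 relations. The alternative with no residuals permuted over all rats. Other steps used Python 3.11.15 with matplotlib 3.10.9, scipy 1.17.1, numpy 2.4.6 and pandas 2.3.3. The limma tests of sex and of batch (F) and the recovery of depth were tried on simulated data. The limma interaction and the comparisons of single batches or runs were not. All 10 genes were named in every result, and of the genes most like them 2 identifiers. The genes and lists were chosen with earlier results of these data known. The deposited table pairs no identifiers with names and 0 identifiers matched the reference table, so marker lists for cell types were not used here and the dissection could not be checked against habenular markers. Of the alternatives, leaving out female rat 32 of batch 3 and, for pairs of batches, the number of genes listed at 0 as a covariate were chosen after the data were examined.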

Additional observations from a re-analysis of the deposited data

Results flagged for a closer look

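Outlying values were looked for in each gene among rats of like sex and batch, in the groups that numbered 4 to 10. Of 40 such tests, where chance gives about 2, a single one stood out, because the gap to the next rat was large beside the range of the group. Arc in female rat 29 of batch 6 was at 8.48, above the 7.64 to 8.02 of her 7 fellow females. Larger groups were not searched in this way, and the 12 females of batch 3, with female rat 32, belong to these.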

How the results depend on the processing

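The count of 0 genes past the threshold for sex, for the interaction, for library measures and for the spread by sex held under every alternative run. The F-test over batches called between 6 and 10 of the 10 genes under its alternatives, except with 20 expression components as covariates. With a mean log2 of at least 5, Egr2 was not tested and 8 of 9 were called, against 77.5% of the 13360 genes tested. With 20 components it called 0 of the 10 and only 20 of all 17512 genes. At an unadjusted p under 0.05 these were 8 and 2068. The components were taken from the same values, with the batch differences in them, so that fit cannot show whether batches differ. The F-test called 6 without batch 2 (61.9% of all genes), 6 with column run as a covariate (35.3%) and 10 without batch 3 (49.9%). The cause was not tested. With column run as a covariate, batches 3 and 2 parted in 0 genes, where 0.0% of all genes were lower. The median of the 10 was -0.82, and 8 had an unadjusted p under 0.05, as did 1613 of all 17512 genes. Batches 4 and 2 parted in 3 (8.74%, median -1.07) and batches 6 and 3 in 4 (16.9%, median -0.89). Batches 4 and 3 parted in 0 (11.1%, median -0.19), with 1 of the 10 and 6605 of all genes at an unadjusted p under 0.05. For batches 6 and 2 that fit called 7 (14.7%, median -1.70), and for batches 6 and 4 it called 3 (4.03%, median -0.42). With the number of genes listed at 0 as a covariate, batches 3 and 2 parted in 2 genes (1.5% of all genes were lower), and batches 6 and 4 within run 3 in 3 (0.331%). Without female rat 32, 1 gene (Arc) passed between runs 2 and 1, where 21.6% of all genes did. Junb then passed between batches 6 and 4, where 2.47% of all genes were lower. Nr4a1 took the place of Jun between batches 3 and 2, where 4.63% of all genes were lower.

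Signs of differences near 0 reversed. With 20 components the sex difference was 0.56 for Egr2 (SE 1.23), 0.30 for Nr4a1 (SE 0.907) and 0.22 for Dusp1 (SE 0.668), each smaller than its SE. Without batch 3 it was 0.20, 0.087 and 0.11, and with no batch covariate 0.013, 0.045 and 0.16, in that order. It was 0.0042 for Dusp1 without batch 6 and -0.0080 for Btg2 without batch 4. In batch 4 against 3, column run as a covariate gave 0.19 for Fos, 0.10 for Fosb and 0.16 for Arc, the genes at 0 gave 0.0052 for Arc, and leaving out female rat 32 gave -0.092 for Egr1. Jun between runs 2 and 1 was 0.0072 with the genes at 0 and 0.0090 without that rat. The causes were not tested.

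All 45 pairs stayed past the threshold with column run or 20 components removed, with no residuals, with a pseudocount of 8 and without female rat 32. With no residuals, the differences between batches stayed in the values, so that setting cannot show whether rats of like batch vary together. Within batch 4 28 pairs passed and within batch 6 22. With 20 components removed the median r was 0.67. The median residual SD of the 10 genes was 0.71, and 0.65 at a pseudocount of 8, where Egr2 went from 1.00 to 0.48 since low values shrink.

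No paired analysis was possible, since sex and batch differ between rats and not within a rat. Rats were numbered within each sex in accession order, so equal numbers mark no pair. The alternatives for marker lists were not run, as 0 identifiers matched a symbol. Egr2, with a median of 4 counts, is limited by depth.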
